A study of Mus musculus with 8 samples.

Results

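Cyclins are the regulatory subunits of the cyclin-dependent kinases, and the phase of the cell cycle in which each one accumulates sets when its kinase is active. The 10 genes described here were chosen by symbol from the 54532 genes in the count table, and all 10 were found once. They are the D-type cyclins of G1 (*Ccnd1*, *Ccnd2*, *Ccnd3*), the E-type cyclins of the step from G1 to S (*Ccne1*, *Ccne2*), the S and G2 cyclin *Ccna2*, the mitotic cyclins *Ccnb1* and *Ccnb2*, the G2 cyclin *Ccnf*, and *Cdk1*, the kinase that cyclins A and B activate. In the early postnatal mouse retina, the dividing cells are late retinal progenitor cells (RPCs), which leave the cycle as rods, bipolar cells and Müller glia, and *Ccnd1* is the D-type cyclin on which retinal progenitors are known to rely.

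Bulk RNA-seq of whole retina compared 4 *Mettl3*-CKO samples with 4 control samples. *Mettl3*-CKO mice carry *Six3-Cre* and 2 floxed *Mettl3* alleles, and they lose the catalytic subunit of the m6A RNA methyltransferase where *Six3-Cre* is active, in RPCs and the cells born from them. The controls were littermates whose own alleles are not given in the labels, which put both groups at postnatal day 7, while the methods give p6. Staining for the loss of METTL3 was described for the central retina, so cells that escaped Cre can be present, and it is not stated how many retinas or pups make up a sample. The p-values therefore measure the spread between these samples, part of which may be technical. Total counts ranged from 16227095 to 20281517 per sample. CPM values are counts scaled to a common library size with TMM factors, and changes are log2 fold changes of *Mettl3*-CKO over control with their standard error (SE) from edgeR's quasi-likelihood test, called at an adjusted p under 0.05 over all 17998 genes tested. All 10 genes passed the filter on low counts.

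*Mettl3* itself lay at 29.3 to 33.8 CPM in controls and at 21.1 to 29.6 CPM after the knockout, a log2 fold change of -0.38 (SE 0.12, adjusted p = 0.0602, edgeR). *Mettl3*-CKO replicate 2 was inside the control range, and without it the gene was called lower (adjusted p = 0.0185, edgeR). That was the 1 of 8 fits without one sample that called *Mettl3*, and the adjusted p was up to 0.185 in the others. Counts over a whole gene include exons outside a deleted segment. The rod and photoreceptor genes that define the tissue were present in all samples, with *Nrl* at 364 CPM or more and *Crx* at 726 CPM or more in each. A pair of controls stood apart. Control replicate 1 had the highest summed level of 10 rod markers (4978 CPM, against 3335 to 3836 CPM in the other controls) and the lowest of 14 proliferation markers (1528 CPM, against 1763 to 1964 CPM), and control replicate 4 held 4208 CPM of 12 lens markers against at most 74.2 CPM in any other sample. Without these controls together, edgeR called no member, while it called 6.25% of all genes tested then higher and 3.63% lower. In bulk tissue, fewer cells of a type and less RNA per cell cannot be told apart.

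*Ccne1* was the 1 of the 10 genes called by edgeR, with more RNA in *Mettl3*-CKO retinas than in controls on average. *Mettl3*-CKO replicate 4 lay inside the control range, and the call held in 3 of 8 fits without one sample. Over all tested genes, 6.49% were called higher, 4.05% lower and 10.5% in either direction. The 1 call among 10 members lies near that share. No member was called lower, and at an unadjusted p under 0.05, 5 members were higher (*Ccnd1*, *Ccne1*, *Ccne2*, *Ccnf* and *Cdk1*) and 0 lower, where 13.5% and 11.1% of all tested genes were. The fold change was above 0 for 8 of the 10 and for 48.2% of all genes. The median log2 fold change was 0.27 over the members and -0.01 over all tested genes. DESeq2 called *Ccne1* and *Cdk1* higher, limma voom with sample quality weights called *Ccne1*, *Ccne2* and *Cdk1* higher, and neither called a member lower. DESeq2 called 8.54% of all genes higher and 6.2% lower, and voom 11.9% and 8.71%.

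**Figure D1:**
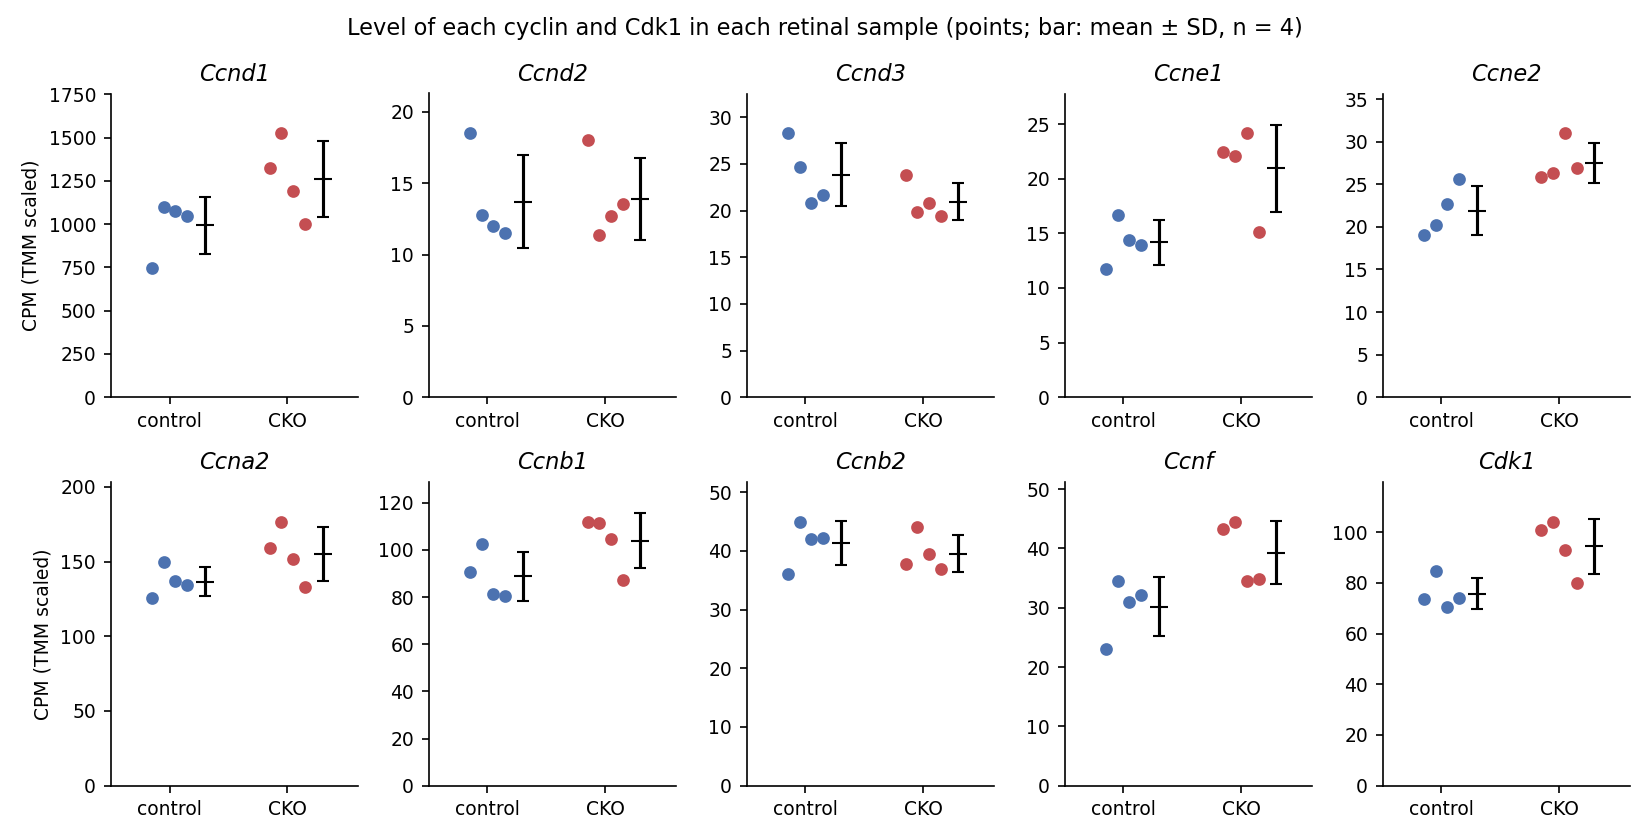
CPM of each gene (vertical axis, from 0) in the 4 control and 4 *Mettl3*-CKO samples, one point per sample in the order of the replicates, with the mean ± SD beside them. *Ccne2* and *Ccnf* are the genes whose 4 *Mettl3*-CKO points all lie above the controls, by a small margin, as in 9.77% of all tested genes. Of the 4 *Mettl3*-CKO points of *Ccnd3*, 3 lie just below the controls, and *Ccnd2* and *Ccnb2* overlap.

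Many genes of the G2 and M phases share promoter elements, the CHR (TTTGAA) and CCAAT boxes, while genes of the G1 to S transition are known to be regulated through E2F sites. RefSeq (GRCm38.p6) gave promoter windows of 300 bases for 6 of the 10 genes (*Ccnd3*, *Ccne1*, *Ccnb1*, *Ccnb2*, *Ccnf* and *Cdk1*). These elements were searched for on both strands by their letters, TTTGAA for the CHR, CCAAT for its box and TTTCGCGC for an E2F site. They occurred in 17.9%, 37.4% and 0.323% of the 32851 windows, and the first with the second in 6.95%. The stretches from 150 bases before to 20 bases after the start are shown for *Ccne1*, the called gene, and for the 4 G2 and M genes with a window, whose log2 fold changes ran from -0.06 to 0.38. They lie at chr7:38107471-38107640, chr10:69352893-69353062, chr17:24251390-24251559, chr9:70421535-70421704 and chr13:100786467-100786636 in the order printed, all on the minus strand and written 5′ to 3′, with TTTGAA in capitals.
Ccne1: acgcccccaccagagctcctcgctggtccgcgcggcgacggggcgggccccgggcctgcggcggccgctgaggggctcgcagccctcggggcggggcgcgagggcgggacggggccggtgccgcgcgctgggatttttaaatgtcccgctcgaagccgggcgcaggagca
Cdk1: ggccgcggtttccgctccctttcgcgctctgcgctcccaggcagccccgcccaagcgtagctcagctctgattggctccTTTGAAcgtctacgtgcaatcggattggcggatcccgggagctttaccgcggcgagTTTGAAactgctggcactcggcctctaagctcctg
Ccnf: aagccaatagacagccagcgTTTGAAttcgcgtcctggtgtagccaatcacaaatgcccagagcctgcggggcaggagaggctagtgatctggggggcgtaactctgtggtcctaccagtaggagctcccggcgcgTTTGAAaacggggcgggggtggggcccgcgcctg
Ccnb2: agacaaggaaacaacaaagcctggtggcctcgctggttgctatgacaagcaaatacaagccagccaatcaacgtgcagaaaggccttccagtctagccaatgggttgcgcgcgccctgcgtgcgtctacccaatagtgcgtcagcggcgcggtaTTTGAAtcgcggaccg
Ccnb1: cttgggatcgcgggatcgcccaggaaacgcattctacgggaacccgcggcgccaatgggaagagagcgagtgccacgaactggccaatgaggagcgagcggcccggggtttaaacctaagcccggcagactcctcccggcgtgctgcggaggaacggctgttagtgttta

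*Cdk1*, *Ccnf* and *Ccnb2* each held TTTGAA at 2 places in the window of 300 bases and CCAAT at 2 or 3. In *Cdk1*, TTTGAA began 71 and 15 bases before the start, and TTTCGCGC 131 bases before it. In *Ccnf*, TTTGAA began 130 and 14 bases before the start. In *Ccnb2*, TTTGAA began 167 bases before the start, outside the stretch shown, and 4 bases after it. *Ccnb1* held CCAAT at 2 places and no TTTGAA, and the letters searched were not in the *Ccne1* window. Of the 3 genes that held TTTGAA beside a CCAAT box, *Cdk1* and *Ccnf* had log2 fold changes of 0.32 and 0.38 and *Ccnb2* one of -0.06, a difference between genes that was not tested. A match is only a description of the letters, and its absence says only that they are not in this window.

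Per gene length, the cyclins of the control retina spanned more than 2 orders of magnitude. *Ccnd1* was at 210.2 ± 37.9 FPKM (SD, n = 4; reads scaled by gene length and library total), followed by *Ccna2* at 33.3 ± 2.91, *Ccnb2* at 26.9 ± 2.90, *Ccnb1* at 20.9 ± 2.50, *Cdk1* at 15.3 ± 1.39, *Ccnf* at 9.70 ± 1.75, *Ccne2* at 6.24 ± 0.900, *Ccne1* at 5.31 ± 0.842, *Ccnd3* at 2.70 ± 0.344 and *Ccnd2* at 1.44 ± 0.312 FPKM. Neighbours in this order did not overlap among the controls, except *Ccnb2* with *Ccnb1*, *Ccnf* with *Ccne2*, and *Ccne2* with *Ccne1*. Within a sample, *Ccnb2* was above *Ccnb1* in 7 of 8 samples, *Ccnf* above *Ccne2* in 8 of 8, and *Ccne2* above *Ccne1* in 4 of 8. In *Mettl3*-CKO retinas *Ccnd1* was again the highest, at 268 ± 46.0 FPKM, and *Ccnd2* the lowest, at 1.48 ± 0.315 FPKM (SD, n = 4 each). The level of *Ccnf* rests on the length of 3099 bases in the count table, whereas GENCODE vM21 gives its exons 7800 bases, so its place in the order depends on the annotation. Other places, and the family shares below, depend on the lengths as well. The length in the count table exceeded the longest coding transcript for *Ccnd3* (8775 against 2113 bases), *Ccnb1* (4217 against 2489) and *Ccnd2* (9409 against 6330), among others. For *Ccnb2* both were 1531 bases. The places of *Ccnd3* and *Ccnd2*, and of *Ccnb2* above *Ccnb1*, were not checked with transcript lengths.

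**Figure D2:**
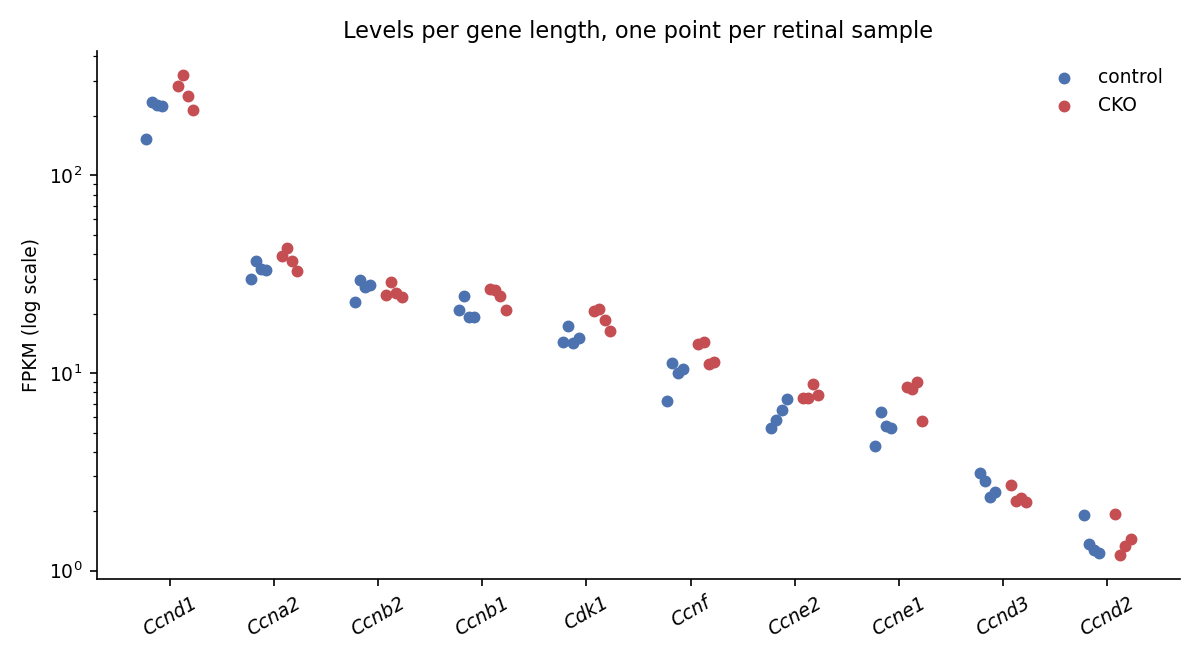
FPKM on a log scale for each gene, ordered by the control mean, with one point per sample. *Ccnd1* lies far above the rest in both groups (210.2 FPKM in controls and 268 FPKM in *Mettl3*-CKO retinas on average). At the deposited gene lengths the D-type cyclins *Ccnd3* and *Ccnd2* are the lowest.

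The D-type cyclins bind CDK4 and CDK6 and carry growth signals into G1. *Ccnd1* measured 748, 1097, 1078 and 1048 CPM in control replicates 1 to 4 and 1322, 1526, 1193 and 1003 CPM in *Mettl3*-CKO replicates 1 to 4. The first 3 *Mettl3*-CKO samples lay above all controls, *Mettl3*-CKO replicate 4 lay inside their range, and control replicate 1 was well below the other controls. The log2 fold change was 0.35 (SE 0.14, 95% interval 0.03 to 0.66, adjusted p = 0.158, edgeR), and without control replicate 1 it was 0.23. About 23.4% of the exon bases of *Ccnd1* are shared with the opposite-strand gene *Oraov1*, whose counts were at least 21.5 times lower in every sample. Whether strand was used in counting is not stated, so these counts do not show whether reads in the shared bases were kept.

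*Ccnd2* and *Ccnd3*, the less abundant D-type cyclins, were not called in either direction. *Ccnd2* measured 18.5, 12.7, 12.01 and 11.5 CPM in the controls and 18.0, 11.4, 12.7 and 13.5 CPM in *Mettl3*-CKO, with replicate 1 the highest of each group. Its log2 fold change was 0.02 (SE 0.18, 95% interval -0.37 to 0.41, adjusted p = 0.963, edgeR). *Ccnd3*, the D-type cyclin associated with Müller glia in the maturing retina, measured 28.3, 24.7, 20.8 and 21.7 CPM in the controls and 23.8, 19.9, 20.8 and 19.4 CPM in *Mettl3*-CKO. In 3 of the 4 *Mettl3*-CKO samples it was below every control, by a margin that rounding hides for replicate 3, and replicate 1 lay inside the control range (log2 fold change -0.19, SE 0.12, 95% interval -0.44 to 0.07, adjusted p = 0.367, edgeR). Without control replicate 1 the log2 fold change was -0.09. *Bysl*, which shares 4.11% of the exon bases of *Ccnd3* on the opposite strand, was called higher (log2 fold change 0.43, adjusted p = 0.0287, edgeR). *Ccnd1* supplied 98.3% to 98.9% of the D-type FPKM in *Mettl3*-CKO samples and 96.8% to 98.4% in controls. The means of 98.5% ± 0.280 in *Mettl3*-CKO and 98.0% ± 0.761 in controls (SD, n = 4 each) differed by 0.578 percentage points (exact permutation test, two-sided p = 0.143, or 0.214 after adjustment for the 3 family shares tested). Without control replicate 1 the difference was 0.200 percentage points.

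The E-type cyclins activate CDK2 at the entry into S phase. *Ccne1* measured 11.7, 16.7, 14.4 and 14.0 CPM in control replicates 1 to 4 and 22.5, 22.1, 24.2 and 15.1 CPM in *Mettl3*-CKO replicates 1 to 4. The first 3 *Mettl3*-CKO samples lay above every control and replicate 4 was within the control range. The means were 14.2 ± 2.05 CPM in controls and 21.0 ± 3.98 CPM in *Mettl3*-CKO (SD, n = 4 each), a log2 fold change of 0.56 (SE 0.15, adjusted p = 0.0365, edgeR). With each sample removed in turn, the call held in 3 of 8 fits, and the log2 fold change ran from 0.48 to 0.69. It was lost, with an adjusted p of up to 0.124, without *Mettl3*-CKO replicate 1, 2 or 3 and without control replicate 3 or 4. Without control replicates 1 and 4 together, the log2 fold change was 0.43 (adjusted p = 0.123, edgeR). *Ccne1* lies on chromosome 7 from 38097984 to 38107534 (GRCm38, minus strand) and shares no exon base with another gene in GENCODE vM21.

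*Ccne2* measured 19.1, 20.2, 22.7 and 25.6 CPM in the controls and 25.8, 26.3, 31.0 and 26.9 CPM in *Mettl3*-CKO. Every *Mettl3*-CKO sample was above every control, as in 9.77% of all tested genes (in 7.58% every one was below), with a gap between 25.6 and 25.8 CPM. The log2 fold change was 0.33 (SE 0.11, adjusted p = 0.0812, edgeR), and limma voom gave an adjusted p of 0.0345. Of its exon bases, 17.4% are shared with the opposite-strand gene *Ints8*, which was more abundant (56.3 CPM in controls), and whether strand was used in counting is not stated. *Ccne1* made up 49.7% ± 4.94 of the E-type FPKM in *Mettl3*-CKO retinas and 46.0% ± 4.38 in controls (SD, n = 4 each; exact permutation test, two-sided p = 0.343, adjusted to 0.343). This difference of 3.74 percentage points was 6.14 without *Mettl3*-CKO replicate 4, 5.78 without control replicate 2 and 2.32 without control replicate 4.

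*Ccna2*, which activates CDK2 in S phase and CDK1 in G2, measured 126, 149.7, 137 and 134 CPM in the controls and 159, 177, 152 and 133 CPM in *Mettl3*-CKO. The groups overlapped, and 12.5% of its exon bases are shared with the opposite-strand gene *Exosc9* (42.1 CPM in controls). The log2 fold change of 0.18 was not called (SE 0.10, 95% interval -0.03 to 0.39, adjusted p = 0.268, edgeR). *Cdk1*, the mitotic kinase, measured 73.6, 84.7, 70.4 and 74.2 CPM in the controls and 101, 104, 92.9 and 79.8 CPM in *Mettl3*-CKO. Only *Mettl3*-CKO replicate 4 fell inside the control range. The log2 fold change was 0.32 (SE 0.10, 95% interval 0.10 to 0.54), with an adjusted p of 0.0653 in edgeR and 0.0306 in DESeq2. With each sample removed in turn, edgeR called *Cdk1* in 2 of 8 fits. These were the fits without *Mettl3*-CKO replicate 4 (adjusted p = 0.0357) and without control replicate 1 (adjusted p = 0.0492). In the others the adjusted p was up to 0.197. No exon base of *Cdk1* (chromosome 10, 69335146 to 69352938, minus strand) is shared with another gene.

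The B-type cyclins are the partners of CDK1 at entry into mitosis, and neither was called. *Ccnb1* measured 90.6, 103, 81.2 and 80.4 CPM in the controls and 112, 111, 105 and 87.0 CPM in *Mettl3*-CKO, a log2 fold change of 0.23 (SE 0.11, 95% interval -0.01 to 0.46, adjusted p = 0.220, edgeR). *Ccnb2* measured 36.0, 45.0, 42.0 and 42.2 CPM in the controls and 37.8, 44.1, 39.4 and 36.9 CPM in *Mettl3*-CKO, so that no *Mettl3*-CKO sample exceeded the highest control. Its log2 fold change was -0.06 (SE 0.10, 95% interval -0.27 to 0.15, adjusted p = 0.747, edgeR). *Ccnb1* made up 48.7% ± 2.42 of the B-type FPKM in *Mettl3*-CKO retinas and 43.8% ± 3.32 in controls, a difference of 4.94 percentage points (two-sided exact permutation test, p = 0.0571, adjusted to 0.171, n = 4 each). The size of this share rests on the deposited gene lengths. From counts, without division by length, the difference was 4.19 percentage points (two-sided exact permutation test, p = 0.0571). Reads of *Ccnb2* are uncertain because the transcribed pseudogene *Ccnb2-ps* on chromosome 8 was also counted, at 13.1 ± 1.11 CPM in controls and 16.0 ± 2.05 CPM in *Mettl3*-CKO. Summed over gene and pseudogene, the level was 54.4 ± 3.10 CPM in controls and 55.6 ± 2.92 CPM in *Mettl3*-CKO (SD, n = 4 each). *Ccnb1-ps* was at no more than 1.57 CPM.

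*Ccnf*, an F-box protein that targets substrates for destruction in G2, measured 23.0, 34.5, 31.0 and 32.1 CPM in the controls and 43.3, 44.5, 34.6 and 34.8 CPM in *Mettl3*-CKO. Every *Mettl3*-CKO sample was above every control, as in 9.77% of all tested genes. The margin was small, since the lowest *Mettl3*-CKO sample and the highest control were 34.6 and 34.5 CPM. The log2 fold change was 0.38 (SE 0.13, 95% interval 0.10 to 0.67, adjusted p = 0.0875, edgeR), and without control replicate 1, the lowest of the 8 samples, it was 0.27.

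**Figure D3:**
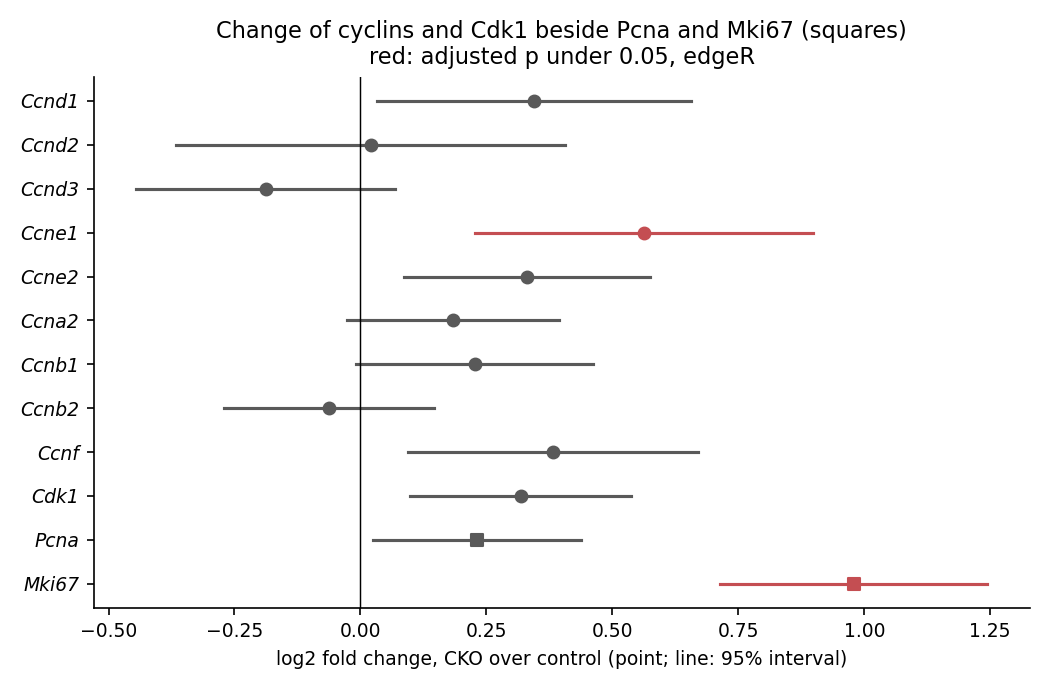
Log2 fold change of *Mettl3*-CKO over control (horizontal axis) with its 95% interval for the 10 genes and, as squares, for *Pcna* and *Mki67*. *Ccne1* (0.56) and *Mki67* (0.98) are drawn in red as called, and the interval of *Mki67* lies above those of the D-type, A-type and B-type cyclins and of *Cdk1*.

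The order of the samples within a group was alike for some members and not for others. How often the same samples were lowest or highest over all tested genes was not counted. *Mettl3*-CKO replicate 4 was the lowest of its group for 7 of the 10 genes and the highest for 0, and control replicate 1 was the lowest control for 6 and the highest for 2, *Ccnd2* and *Ccnd3*. Control replicate 2 was the highest control for 7. *Mettl3*-CKO replicate 4 also had the lowest summed proliferation markers (2133 CPM, against 2614 to 2855 CPM) and the highest summed rod markers (3197 CPM, against 1978 to 2589 CPM) of its group. The sample of each group that was lowest for most members was thus also lowest for proliferation markers and highest for rod markers, and the part of these markers in the results was not tested. Over the 8 samples, the genes closest to *Cdk1* by root mean square difference of centred log2 CPM were *Fastkd1* (0.0482), *Utp14b* (0.0515) and *Ndc80* (0.0538) among 14316 genes compared, and *Ccnb1* ranked 11. Those closest to *Ccnd1* were *Rcc1* (0.0493), *Tacc3* (0.0504) and *Pold1* (0.0633), with *Ccnf* at rank 23. *Ccnd3* and *Ccnd2* were far from both, at ranks 10542 and 12112 from *Ccnd1* and 8274 and 9858 from *Cdk1*. *Ccnd3* was closest to *Abcf3* (0.0347), *Katna1* (0.0564) and *Ccdc28b* (0.0590), and the nearest member to it, *Ccnd2*, ranked 3218.

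*Mki67*, the gene of the proliferation antigen KI67, rose, and its fold change was larger than that of any of the 10 genes, a difference that was not tested. It measured 405, 509, 438 and 484 CPM in the controls and 1092, 927, 873 and 728 CPM in *Mettl3*-CKO (log2 fold change 0.98, SE 0.12, adjusted p = 0.000701, edgeR), and all *Mettl3*-CKO samples lay above all controls. *Pcna*, the replication clamp, measured 205, 238, 231 and 221 CPM in the controls and 251, 269, 303 and 229 CPM in *Mettl3*-CKO and was not called (log2 fold change 0.23, SE 0.10, adjusted p = 0.151, edgeR). Of 14 proliferation markers, 7 were called higher and 0 lower, beside 6.49% and 4.05% of all tested genes. Without *Mki67* the other 13 had log2 fold changes between 0.23 and 0.62 with a median of 0.42.

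Per unit of *Mki67* RNA, each of the 10 genes was lower in every *Mettl3*-CKO sample than in every control, but so were 76.6% of all tested genes. The ratio of means, *Mettl3*-CKO over control, ran from 0.445 for *Ccnd3* to 0.753 for *Ccne1*, beside a median of 0.510 over all tested genes. The count of members is therefore not a result about them. The CPM of *Ccna2* over that of *Mki67* was 0.311, 0.294, 0.312 and 0.278 in the controls and 0.146, 0.191, 0.174 and 0.183 in *Mettl3*-CKO. For *Ccnb2* the ratio was 0.0890, 0.0884, 0.0958 and 0.0873 in the controls and 0.0346, 0.0476, 0.0452 and 0.0508 in *Mettl3*-CKO, or 0.494 of the control mean.

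The counts differed with another reference. Relative to *Pcna*, *Ccnb2* was the single member below every control (0.822 of the control ratio), where 16.9% of all tested genes were, and the other 9 overlapped, with ratios of means between 0.750 and 1.26. Relative to the summed CPM of the 14 proliferation markers, 6 members were below every control (*Ccnd2*, *Ccnd3*, *Ccna2*, *Ccnb1*, *Ccnb2* and *Cdk1*), where 47.3% of all tested genes were. With *Mki67* taken out of that sum, 3 were, namely *Ccnd3* (0.669), *Ccna2* (0.870) and *Ccnb2* (0.739), where 26% of all tested genes were, with a median ratio of 0.763. These shares of the members lay near those of all genes.

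**Figure D4:**
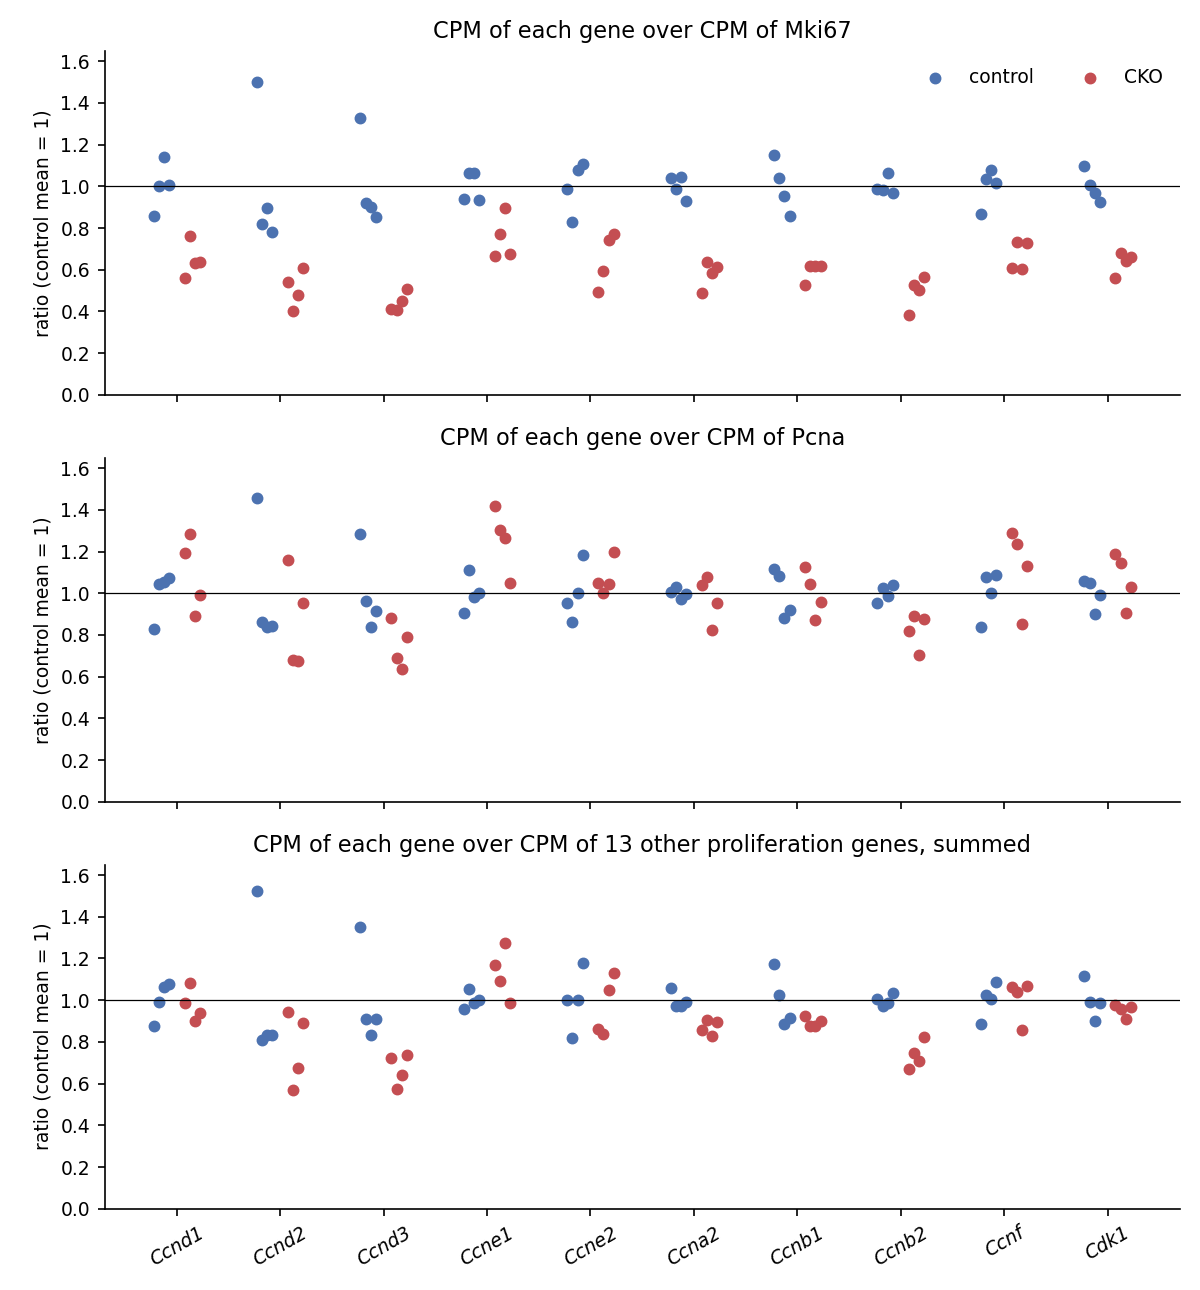
CPM of each gene over the CPM of *Mki67* (top), of *Pcna* (middle) and of the other 13 proliferation markers summed (bottom), divided by the control mean so that 1 is the control level, with one point per sample. All *Mettl3*-CKO points lie below the controls for the 10 genes in the top panel, for *Ccnb2* in the middle one and for *Ccnd3*, *Ccna2* and *Ccnb2* in the bottom one, as 76.6%, 16.9% and 26% of all tested genes do.

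Some of the genes that activate, inhibit or degrade the cyclin-CDK complexes were called. Of all tested genes, 6.49% were called higher and 4.05% lower. The lists are short, so the counts below are not results about the lists. Of 11 CDK partners and activators, 1 was called higher and 0 lower, with a median log2 fold change of 0.08. The called gene was *Cks1b*, a small subunit that binds CDKs, with 30.1 ± 1.04 CPM in controls and 45.5 ± 5.54 CPM in *Mettl3*-CKO (SD, n = 4 each; log2 fold change 0.60, SE 0.10, adjusted p = 0.00308, edgeR). Of 9 CDK inhibitors and inhibitory kinases, 2 were called higher and 2 lower. *Cdkn1a*, which encodes the inhibitor p21 and is a target of p53, went from 30.9 ± 2.84 CPM in controls to 77.8 ± 16.0 CPM (log2 fold change 1.33, SE 0.14, adjusted p = 0.000227, edgeR). *Cdkn2d*, an inhibitor of CDK4 and CDK6, was also higher (0.46, adjusted p = 0.0477, edgeR). Of the 2 called lower, *Cdkn1b*, encoding p27, went from 234 ± 17.6 to 179.5 ± 15.3 CPM (log2 fold change -0.38, adjusted p = 0.0163, edgeR), and *Cdkn1c*, encoding p57, had a log2 fold change of -0.39 (adjusted p = 0.0197, edgeR). The call of *Cdkn1b* was lost without *Mettl3*-CKO replicate 1 (adjusted p = 0.0663, edgeR), and that of *Cdkn1c* without *Mettl3*-CKO replicate 1 or 3 or control replicate 3 or 4 (adjusted p up to 0.0760). That of *Cdkn2d* was kept in 2 of 8 such fits, those without *Mettl3*-CKO replicate 2 or control replicate 1 (adjusted p up to 0.158 in the others).

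Of 11 genes of cyclin degradation, 2 were called higher and 0 lower, beside 6.49% and 4.05% of all tested genes. They were *Fbxo5*, an inhibitor of the anaphase-promoting complex (log2 fold change 0.69, adjusted p = 0.0128, edgeR), and *Skp2*, the F-box protein that targets p27 (log2 fold change 0.45, adjusted p = 0.0126, edgeR). Of 15 transcriptional regulators of cyclin genes, such as E2F factors and the MuvB complex, 0 were called higher and 1 lower, the MuvB subunit *Lin37* (log2 fold change -0.43, adjusted p = 0.0491, edgeR). At an unadjusted p under 0.05, 2 of the 15 were higher and 2 lower, where 13.5% and 11.1% of all tested genes were. *Fbxo5* and *Skp2* were not called without *Mettl3*-CKO replicate 1 (adjusted p = 0.0521 and 0.0525, edgeR), and *Lin37* was called in 2 of 8 fits without one sample, those without *Mettl3*-CKO replicate 3 or control replicate 1 (adjusted p up to 0.165 in the others).

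Of 15 other cyclins tested, 2 were called higher and 0 lower, beside 6.49% and 4.05% of all tested genes. The median log2 fold change of this list was -0.03. *Ccnl2*, a cyclin linked to RNA splicing, went from 297 ± 23.9 CPM in controls to 519 ± 12.6 CPM (log2 fold change 0.80, adjusted p = 0.000227, edgeR). *Ccng1*, a p53 target, had a log2 fold change of 0.69 (adjusted p = 0.0497, edgeR). The *Ccnl2* call held with each sample removed, whereas that of *Ccng1* held in 2 of 8 fits, those without *Mettl3*-CKO replicate 2 or control replicate 1 (adjusted p up to 0.178 in the others). Neither is a cyclin of a cell cycle phase.

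**Figure D5:**
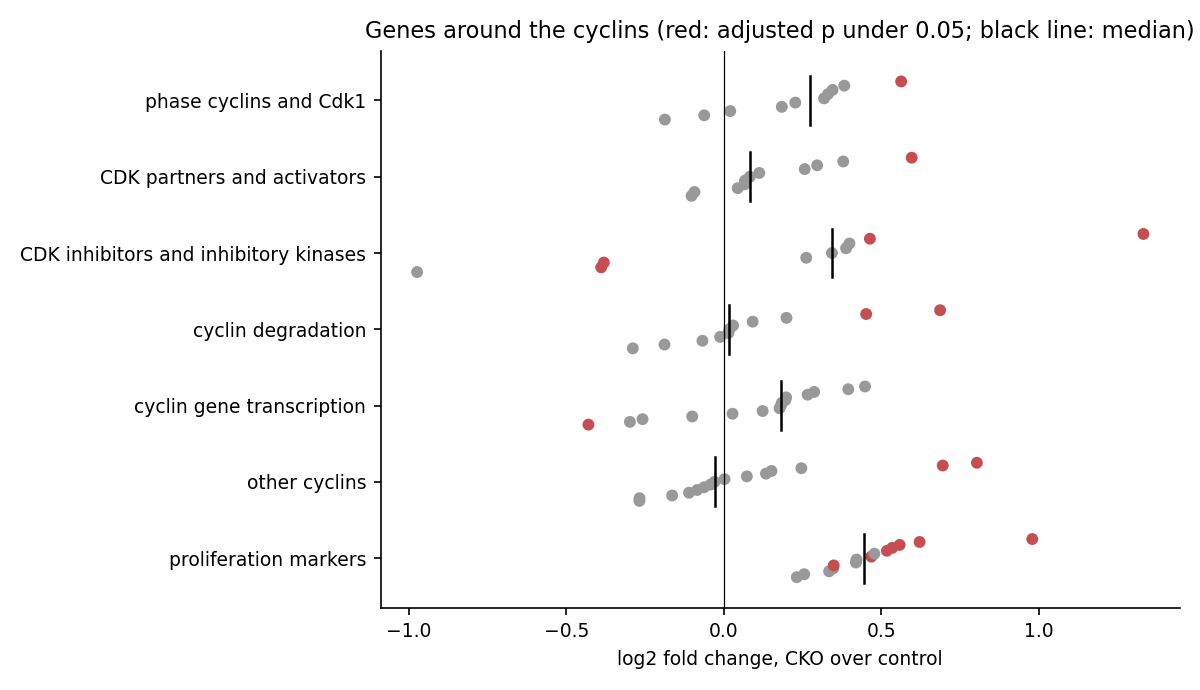
Log2 fold change of *Mettl3*-CKO over control for each tested gene of 7 lists, one point per gene, in red where the adjusted p was under 0.05, with a black line at the median of the list. *Cdkn1a* (1.33), *Mki67* (0.98) and *Ccnl2* (0.80) reach farthest to the right, and the 10 members, in the top line, lie between -0.19 and 0.56.

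Markers of some cell types differed between the groups. Among all tested genes, 6.49% were called higher and 4.05% lower, and 13.5% and 11.1% were at an unadjusted p under 0.05. Of 11 progenitor markers, 3 were called higher and 1 lower, and their summed level was 1462 to 1897 CPM in controls and 1841 to 2267 CPM in *Mettl3*-CKO. Of 10 rod markers, 6 were called lower and 0 higher, with 3335 to 4978 CPM in controls and 1978 to 3197 CPM in *Mettl3*-CKO. Of 11 Müller glial markers tested, 1 was called higher and 2 lower, and their summed level was 2438 to 3113 CPM in controls and 2375 to 2543 CPM in *Mettl3*-CKO. Of 11 vascular markers, 7 were called lower and 1 higher, of 3 erythrocyte markers 2 lower, and of 8 microglial and immune markers 0 in either direction, with 1 higher and 0 lower at an unadjusted p under 0.05. Of 5 lens markers tested, 4 were called lower. The 12 lens markers listed summed to 74.2, 6.74, 5.51 and 4208 CPM in control replicates 1 to 4. In *Mettl3*-CKO they summed to 4.41 to 18.9 CPM, a range that also held control replicates 2 and 3. No gene of any of these lists was at 0 in all 8 samples. The part of these shifts in the cyclin values was not tested.

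METTL3 places m6A mainly in a DRACH context, of which GGACT is a common form. In the longest coding transcript of each gene in GENCODE vM21, GGACT occurred at least once in 92.9% of 14285 genes, with a median of 1.05 per kilobase. All 10 genes held it. *Ccne1* held 3 (1.5 per kilobase, a density that 74.4% of genes do not exceed), *Ccnd1* held 3 (0.802), *Cdk1* held 6 (1.37) and *Ccnf* held 6 (1.45). *Ccnb1* held 1 (0.402 per kilobase), and 12.7% of genes lay at or below it. These are letters in the transcript and not measured m6A sites.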

How the data were processed

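RNA of 4 *Mettl3*-CKO and 4 control retinal samples was sequenced in bulk. The authors mapped reads with HISAT2 and made gene counts with featureCounts, and the deposited values are raw counts without normalization. Gene lengths came from the same table. Totals of 16227095 to 20281517 counts per sample put 3 counts at 0.148 to 0.185 CPM, which limits counting precision only. The main test was edgeR 4.0.16 under R 4.3.3 (filterByExpr by group, TMM, quasi-likelihood, Benjamini-Hochberg over 17998 genes, threshold 0.05), checked on simulated data. DESeq2 1.42.0 and limma 3.58.1, other scalings and filters, a replicate block and leaving out samples were alternatives. The SE is the log2 fold change divided by the square root of F. FPKM used deposited lengths and totals, and family shares were compared with two-sided exact permutation tests (smallest possible p = 0.0286, scipy 1.17.1). Ratios and promoter or GGACT letters were not tested. No library pair was a duplicate (at least 5.47 chi-square per gene). The members and lists were chosen with earlier results of these data known. Named genes were the members, *Mettl3*, *Mki67*, *Pcna*, up to 4 called genes per list and direction, and the 3 nearest genes in pattern for 4 members. The nearest genes to *Ccne1* are not reported here. Genes that overlap them were added for the count limits.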

Additional observations from a re-analysis of the deposited data

Results flagged for a closer look

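Of 72 groups of 4 samples examined, 7 had a sample whose gap to the nearest other exceeded Dixon's 95% critical value, where chance gives about 3.6. These groups are not independent, since the level of a gene enters its share and its ratios, so 7 against 3.6 is not a test. Control replicate 1 was the sample in 6 of the 7. Its log2 CPM of *Ccnd1* was 9.55, against 10.03 to 10.10 in the other controls, and *Ccnd1* made up 96.8% of its D-type FPKM, against 98.2% to 98.4%. Its ratio of *Ccnd1* to *Pcna* was 3.65, against 4.602 to 4.75. Its ratio of *Ccnd2* to *Mki67* was 0.0458, against 0.0239 to 0.0274, and that of *Ccnd2* to *Pcna* 0.0904, against 0.0520 to 0.0534. Its ratio of *Ccnd3* to *Mki67* was 0.0700, against 0.0449 to 0.0485. In *Mettl3*-CKO replicate 1, the ratio of *Ccnb1* to *Mki67* was 0.103, against 0.120 in each of the other 3 samples.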

How the results depend on the processing

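The number of members called higher was 1 with edgeR and moved to 2 with DESeq2, 3 with limma voom, 3 with no filter on low counts, 2 with the replicate block, 0 at an adjusted p under 0.01, 0 without control replicates 1 and 4 together, and 0 to 2 when one sample was left out. No member was called lower in any of these. *Ccne1* kept its direction in all of them and was called in 7 of 9 alternatives and 3 of 8 fits without one sample. All genes called numbered 1168 higher and 729 lower with edgeR, 1476 and 1072 with DESeq2, and 2142 and 1568 with limma voom. They numbered 1330 and 819 with no filter on low counts, and 1198 and 660 with the replicate block. At an adjusted p under 0.01 they were 439 and 147, and without control replicates 1 and 4 together 1175 and 682. Without one sample they ran from 509 to 1882 and from 185 to 1289. The log2 fold change of *Ccnd2* ran from -0.12 to 0.20 without one sample and changed sign without *Mettl3*-CKO replicate 1 (-0.12) and without control replicate 2 (-0.01), 3 (-0.03) or 4 (-0.05). Members below every control relative to *Mki67* numbered 10, and relative to *Pcna* 1, against 6 with the summed proliferation markers and 3 with that sum without *Mki67*, where 76.6%, 16.9%, 47.3% and 26% of all tested genes were. This last sum and the removal of control replicates 1 and 4 together were chosen after seeing the data. The cause of these differences was not tested.

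Whether the replicate numbers pair the samples is not given in the labels. Deviations of same-numbered samples correlated at -0.11 to 0.25, against -0.23 to 0.26 for other pairs. In each group, 2 of 4 samples correlated best with their own number. With 4 samples per group, these values cannot decide whether the samples were paired. With the replicate block, *Cdk1* had an adjusted p of 0.0476 in edgeR. Paired sign-flip permutation tests of the family shares gave p = 0.25 for D-type, 0.125 for E-type and 0.125 for B-type, and 0.125 is the smallest that 4 pairs allow, so this test could call none. *Ccnd2*, with 191 counts in its lowest sample, is the least deeply counted member, and FPKM depends on the deposited gene lengths.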
